A study of Saccharomyces cerevisiae with 72 samples.

Results

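The genes described here are 10 genes for high-affinity iron uptake in budding yeast, defined as a group by their known role in iron uptake: *FET3* (YMR058W), *FTR1* (YER145C) and *FRE2* (YKL220C) of the reductive pathway, the siderophore transporters *ARN1* (YHL040C), *ARN2* (YHL047C), *SIT1* (YEL065W) and *ENB1* (YOL158C), and the cell wall mannoproteins *FIT1* (YDR534C), *FIT2* (YOR382W) and *FIT3* (YOR383C). Of the 10 genes, 8 had a region among the 5498 features that RNA-seq counted in the SK1 genome, and 6 had a cluster of transcription start sites (TSSs) in TL-seq, which captures the 5′ ends of capped transcripts. *FIT2* and *FIT3* were not analysed here, and *FRE2* and *FIT1* had RNA-seq values only. All 8 genes passed the filter on low counts in every RNA-seq comparison.

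Yeast takes up iron by a reductive and a siderophore pathway. In the first, reductases of the Fre family reduce ferric iron at the cell surface, and the multicopper oxidase Fet3 and the permease Ftr1 carry it across the plasma membrane as a complex. In the second, transporters of the Arn family import iron bound to siderophores made by other microbes, and the Fit mannoproteins hold siderophore iron in the cell wall. The transcription factor Aft1, with its paralog Aft2, activates these genes when iron is scarce. Fet3 needs copper to work, which ties iron uptake to copper supply.

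All strains were SK1 diploids in which copper induces *IME1*, the master regulator of meiotic entry, and *IME4*, an mRNA methyltransferase, from the *CUP1* promoter. The strain with wild-type *UME6* (UB20649) carried *UME6-3V5*, *irt1::pCUP1-3HA-IME1* and *ime4::pCUP1-3HA-IME4*. The *ume6* T99N strain (UB22629) carried *UME6(T99N)-3V5*, *irt1::pCUP1-3HA-IME1* and *pCUP-IME4*. The T99N change blocks the binding of Ime1 to Ume6, a DNA-binding regulator of early meiotic genes. Each strain was collected in triplicate at 0, 2, 3 and 4 h in sporulation medium, a starvation medium with acetate as the main carbon source, and 50 µM CuSO4 was added after 2 h, so that the 3 and 4 h cells had 1 and 2 h of copper. Another strain (UB14584: *pCUP-IME1*, *pCUP-IME4*, the BY4741 allele of *AMN1*) was collected at 2 and 4 h for RNA-seq (replicates 4 and 5) and TL-seq (replicates 1, 3 and 5 in 1 table, 4 and 5 in another). The groups without copper were the 0 and 2 h samples, and a sample without copper at 3 or 4 h was not analysed here. The effects of copper, of *IME1* and *IME4* induction and of further time in the medium therefore cannot be told apart within a strain. The strains differ in the *IME4* construct as well as in *UME6*, and each genotype was a single strain. The labels do not say whether replicates were separate cultures, so the p-values measure the spread between these samples.

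The 24 libraries of the *UME6* experiment held between 5013205 and 20865934 reads in counted features, the 4 UB14584 RNA-seq libraries between 3124472 and 4845107, and the 6 TL-seq libraries between 3195012 and 8243174. *IME1* served as the check of induction and stood at 52.8 to 111 CPM (read counts scaled to a common library size with TMM factors) in the 6 wild-type libraries at 0 and 2 h, and at 694 to 3944 CPM in the 6 with copper. For copper, *CUP1-2*, a metallothionein gene, was used, since *CUP1-1* was not among the counted regions. Before copper, at 2 h, the wild-type libraries held 41.5 to 75.5 CPM of it, and after copper 398 to 1648 CPM. A pair of T99N libraries stood apart from their group. Replicate 1 at 2 h, labelled as taken before copper, had 1870 CPM of *IME1* and 426 CPM of *CUP1-2*, while the others had 74.5 and 91.2 CPM of *IME1* and 16.0 and 19.4 CPM of *CUP1-2*. Replicate 1 at 3 h had 375 CPM of *CTR3* and 168 CPM of *CTR1*, which encode copper transporters, while the others had 35.5 and 25.1 CPM of *CTR3* and 20.5 and 19.5 CPM of *CTR1*. The first of these goes against its label: its *IME1* and *CUP1-2* levels lie within those of the T99N libraries with copper, at 1649 to 5823 and 296 to 739 CPM. Whether either library was exchanged or taken at another time was not tested, and the first enters each T99N value at 2 h and each interaction unless left out. Results that rest on them are given with all libraries and with both left out, a choice made after these values were seen.

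In the SK1 assembly, 6 of the 8 genes lay within 50 kb of an annotated chromosome end, where 10.1% of all 5543 annotated genes lie. *ENB1* was nearest to its end, on the minus strand of chromosome XV from 6815 to 8635. *ARN2* (10382 to 12244) and *ARN1* (21133 to 23016) were both on the minus strand of chromosome VIII, *FRE2* (15464 to 17599) on the minus strand of chromosome XI, *FIT1* (1464826 to 1466202) on the minus strand of chromosome IV, and *SIT1* (40823 to 42709) on the plus strand of chromosome V. *FET3* (chromosome XIII, 360625 to 362535, plus strand) and *FTR1* (chromosome V, 479929 to 481143, minus strand) were outside that window.

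Levels between genes were compared as TPM, an abundance that takes account of transcript length. At the transfer into sporulation medium (0 h) in wild type, *SIT1*, the ferrioxamine B transporter, was highest at 984 ± 79.7 TPM (SD, n = 3), above 97.5% of the CDS features. *FET3* followed at 433 ± 19.0 TPM, *FTR1* at 282 ± 23.4, *ARN2* at 255 ± 17.9, *ARN1* at 134 ± 8.54, *FIT1* at 132 ± 27.3, *ENB1* at 104 ± 4.85 and *FRE2* at 10.2 ± 2.29 TPM. In this order, the libraries of *FTR1* and *ARN2*, of *ARN1* and *FIT1*, and of *FIT1* and *ENB1* overlapped, and the other neighbours did not. The genes thus covered a wide range in the cells that entered the medium, with *FRE2*, a ferric reductase, near the bottom at the 13.0th percentile. *SIT1* had the highest mean in 7 of the 8 groups. The exception was wild type at 3 h, where *FTR1* stood at 215 ± 24 and *SIT1* at 195 ± 19.4 TPM with overlapping libraries. *FRE2* was lowest in all 8 groups.

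**Figure D1:**
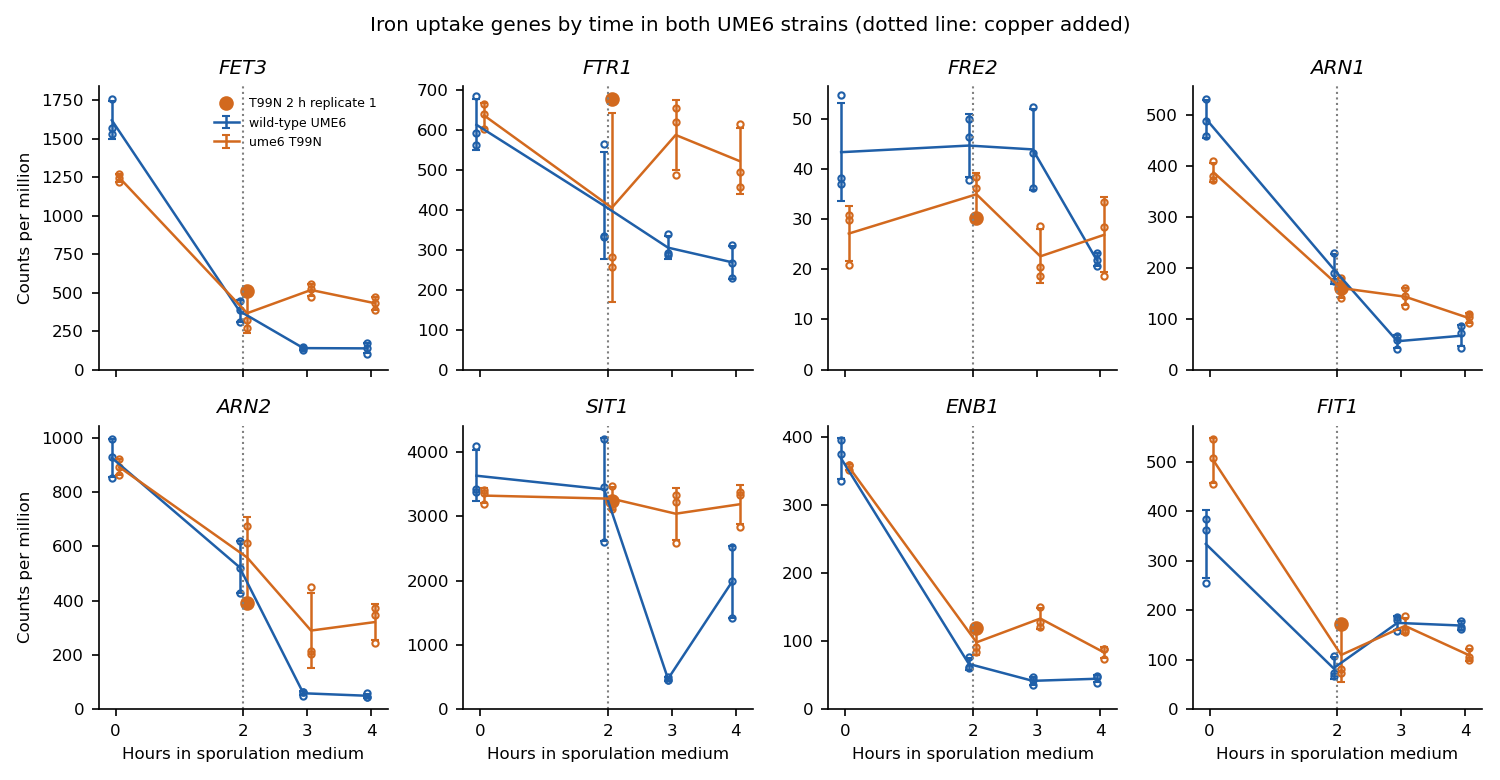
CPM (y axes, from 0) of the 8 counted genes against hours in sporulation medium (x axes) in wild-type *UME6* (blue) and *ume6* T99N (orange), with open points for libraries, lines through the means, bars for the SD (n = 3) and a filled point for T99N replicate 1 at 2 h. *FET3*, *ARN1* and *ENB1* fell before copper in both strains, and *SIT1* stood between 452 and 503 CPM at 3 h in wild type against 2579 to 3324 CPM in T99N.

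The first comparison asks how the genes responded to the starvation medium before copper. In wild type, 5 of the 8 genes fell from 0 to 2 h, where 25.0% of all 5488 features tested fell, and none rose, where 25.1% of features rose. In edgeR's quasi-likelihood test with Benjamini-Hochberg adjustment over all features, the threshold was an adjusted p of 0.05. At an unadjusted p of 0.05, 0 genes were higher, and DESeq2 called 0 higher. The median log2 fold change of the 8 genes was -1.07, beside 0.01 over all features. Fewer cells that express a gene and less RNA per cell cannot be told apart in these bulk samples.

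*FET3*, the oxidase of the reductive complex, was at 1572, 1761 and 1530 CPM at 0 h and at 384, 449 and 309 CPM at 2 h in wild type. The groups did not overlap, and *FET3* fell by 2.09 ± 0.20 on the log2 scale (SE, adjusted p = 3.16e-08, edgeR). *FTR1*, its permease partner, moved less: it was at 562, 685 and 594 CPM at 0 h and at 331, 565 and 335 CPM at 2 h. The groups overlapped through replicate 2 at 2 h, and the change of -0.58 ± 0.26 did not pass (adjusted p = 0.0735, edgeR). Without that library the change was -0.88 (adjusted p = 0.0146, edgeR). In TPM the 2 h libraries of *FTR1*, at 119 to 180, were all below its 0 h libraries, at 258 to 305. *FRE2* was at 54.7, 38.3 and 37.1 CPM at 0 h and at 50.0, 46.4 and 37.7 CPM at 2 h, a change of 0.05 with a 95% interval of -0.38 to 0.48. Of the 3 reductive genes, *FET3* alone passed the test with all libraries.

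Among the siderophore transporters, *ENB1*, which imports enterobactin, had the largest fall of the 8 genes. It was at 375, 396 and 336 CPM at 0 h and at 61.5, 77.3 and 60.7 CPM at 2 h, a fall of 5.54-fold (log2 fold change -2.47 ± 0.15, adjusted p = 2.56e-11, edgeR). *ARN1*, a ferrichrome transporter, fell from 457, 532 and 488 to 189, 230 and 174 CPM (-1.32 ± 0.19, adjusted p = 6.7e-06, edgeR). *ARN2*, which imports triacetylfusarinine C, fell from 854, 997 and 929 to 430, 620 and 520 CPM (-0.82 ± 0.25, adjusted p = 0.00788, edgeR). For these 3 transporters every 2 h library was below every 0 h library. *SIT1* stood apart from them, at 3379, 4086 and 3425 CPM at 0 h and 2598, 4203 and 3454 CPM at 2 h, with overlapping groups and a 95% interval of the log2 change from -0.48 to 0.31. In TPM, however, its 2 h libraries, at 586 to 791, were all below its 0 h libraries, at 915 to 1071. *FIT1*, the wall mannoprotein, fell from 255, 385 and 363 to 66.4, 108 and 73.1 CPM (-2.01 ± 0.24, adjusted p = 6.48e-07, edgeR), again without overlap.

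In T99N the same step was measured in other cells. There 5 of the 8 genes fell, where 20.1% of features fell, and 0 rose, where 21.8% rose (0 higher at an unadjusted p of 0.05 and by DESeq2). *FET3* went from 1271, 1246 and 1222 CPM at 0 h to 508, 269 and 322 CPM at 2 h, *ENB1* from 359, 352 and 359 to 120, 84.2 and 91.1 CPM, and *FIT1* from 547, 455 and 508 to 173, 73.6 and 81.9 CPM. In all 3 genes the 2 h libraries were below the 0 h libraries, and replicate 1, which stands apart, was the highest at 2 h. The falls were 1.77 ± 0.20, 1.86 ± 0.14 and 2.19 ± 0.24 on the log2 scale (*FET3*, *ENB1* and *FIT1*: adjusted p = 4.03e-07, 2.06e-09 and 2.98e-07, edgeR). *ARN1* fell by 1.27 ± 0.19 (adjusted p = 1.53e-05, edgeR). *ARN2* changed by -0.67 ± 0.25 (adjusted p = 0.0312, edgeR), a call that was lost without any single 0 h library (adjusted p = 0.0746, 0.0546 and 0.0647) and without replicate 1 at 2 h (0.146). *FTR1* did not pass with all libraries (-0.65 ± 0.27, adjusted p = 0.054) and fell by 1.27 ± 0.21 with both libraries that stand apart left out (adjusted p = 6.82e-05, edgeR).

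The change of each gene over this step was not shown to differ between the strains. In the interaction of strain and time, 0 of 8 genes passed in either direction, where 0.237% of features passed as higher and 0.383% as lower. At an unadjusted p of 0.05 the interaction of 1 gene, *ENB1*, was higher in T99N (0.61 ± 0.20, adjusted p = 0.17, edgeR) and 0 were lower, and DESeq2 called 0 in either direction.

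The second comparison asks what happened once copper had been added and *IME1* induced. In wild type, 5 of the 8 genes fell within 1 h (3 h against 2 h), where 31.2% of features fell, and 1 rose, where 35.0% rose. At 4 h, 7 genes were lower than at 2 h, where 31.0% of features were, and 1 was higher, where 34.2% were. Both comparisons share the 2 h libraries. The median log2 fold change of the 8 genes was -1.06 at 3 h, beside 0.05 over all features, and -0.91 at 4 h, beside 0.03. Scaled to library totals instead of TMM, the median of all features moved to 0.66 at 3 h and 0.41 at 4 h, with 3386 features higher and 762 lower at 3 h in place of 1921 and 1712, and 2687 and 972 at 4 h in place of 1878 and 1703. The changes below are relative to the TMM centre. In TPM, *ENB1* instead stood higher at 3 h (17.0 to 18.9) than at 2 h (13.2 to 15.2). The same held for *FTR1* (187 to 230 against 119 to 180) and *FRE2* (14.6 to 17.5 against 6.83 to 9.79). *SIT1*, *ARN2*, *ARN1* and *FET3* were lower at 3 h in TPM too, and *FIT1* was higher, all without overlap. At 4 h, *SIT1* (518 to 711 TPM) overlapped its 2 h libraries (586 to 791). So did *FTR1* (135 to 149 against 119 to 180) and *ENB1* (14.3 to 14.8 against 13.2 to 15.2). *ARN2*, *ARN1*, *FET3* and *FRE2* were lower at 4 h than at 2 h in TPM, and *FIT1* was higher, all without overlap.

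*ARN2* fell furthest. It was at 430, 620 and 520 CPM at 2 h, at 63.9, 62.1 and 49.1 CPM at 3 h and at 58.2, 46.2 and 43.0 CPM at 4 h. The falls were 8.96-fold at 3 h (log2 fold change -3.16 ± 0.27, adjusted p = 1.0e-09, edgeR) and 10.6-fold at 4 h (-3.41 ± 0.27, adjusted p = 5.43e-10). *SIT1*, which had not passed the test from 0 to 2 h, went from 2598, 4203 and 3454 CPM at 2 h to 452, 503 and 455 CPM at 3 h, a fall of 7.27-fold (-2.86 ± 0.20, adjusted p = 8.19e-11, edgeR). At 4 h it was back at 2519, 1997 and 1413 CPM, each above every 3 h library and below every 2 h library in CPM (4 h against 2 h: -0.79 ± 0.19, adjusted p = 0.00109, edgeR). In TPM its 4 h libraries overlapped those at 2 h. The step from 3 to 4 h was not among the comparisons tested. *ARN1* fell from 189, 230 and 174 CPM at 2 h to 66.8, 58.8 and 41.1 CPM at 3 h and stood at 84.6, 71.2 and 43.2 CPM at 4 h (-1.83 ± 0.19 and -1.57 ± 0.19, adjusted p = 2.86e-08 and 2.92e-07, edgeR). *ENB1* had the smallest change of the 4 transporters at either time, from 61.5, 77.3 and 60.7 CPM to 47.2, 42.5 and 35.1 CPM at 3 h and 48.7, 46.6 and 38.7 CPM at 4 h (-0.68 ± 0.14 and -0.57 ± 0.14, adjusted p = 0.00027 and 0.0014, edgeR). Both calls of *ENB1* were lost when libraries were scaled to totals (-0.04 and -0.18, adjusted p = 0.843 and 0.343).

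Of the reductive genes, *FET3* passed at both times. It was at 384, 449 and 309 CPM at 2 h, 148, 143 and 127 CPM at 3 h and 170, 139 and 104 CPM at 4 h. It had fallen by 1.45 ± 0.20 on the log2 scale at 3 h and by 1.47 ± 0.20 at 4 h (adjusted p = 1.13e-06 and 1.09e-06, edgeR), with overlapping libraries at 3 and 4 h. *FTR1* was at 331, 565 and 335 CPM at 2 h, 287, 339 and 291 CPM at 3 h and 312, 266 and 229 CPM at 4 h. Its groups overlapped at 3 h (-0.43 ± 0.26, adjusted p = 0.161, edgeR), and its call at 4 h was close to the threshold (-0.61 ± 0.27, adjusted p = 0.0486). That call was lost without wild-type replicate 2 at 2 h (-0.31, adjusted p = 0.338), replicate 2 at 4 h (-0.60, 0.0959) or replicate 3 at 4 h (-0.51, 0.145), and under scaling to totals (-0.20, 0.519). *FRE2* moved late: it was at 52.4, 43.1 and 36.2 CPM at 3 h, overlapping the 2 h libraries, and at 21.8, 23.2 and 20.7 CPM at 4 h, below all of them (-1.03 ± 0.21, adjusted p = 0.000204, edgeR). Scaled to totals, *FRE2* was instead called higher at 3 h (0.59, adjusted p = 0.022).

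*FIT1* moved the other way from the uptake proteins. It was at 66.4, 108 and 73.1 CPM at 2 h, 180, 186 and 158 CPM at 3 h and 178, 162 and 167 CPM at 4 h in wild type. All libraries with copper were above all 2 h libraries, and *FIT1* rose 2.11-fold at 3 h (1.08 ± 0.23, adjusted p = 0.000353, edgeR) and 2.04-fold at 4 h (1.03 ± 0.23, adjusted p = 0.000564). It remained below its 0 h libraries, which were at 255, 385 and 363 CPM.

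**Figure D2:**
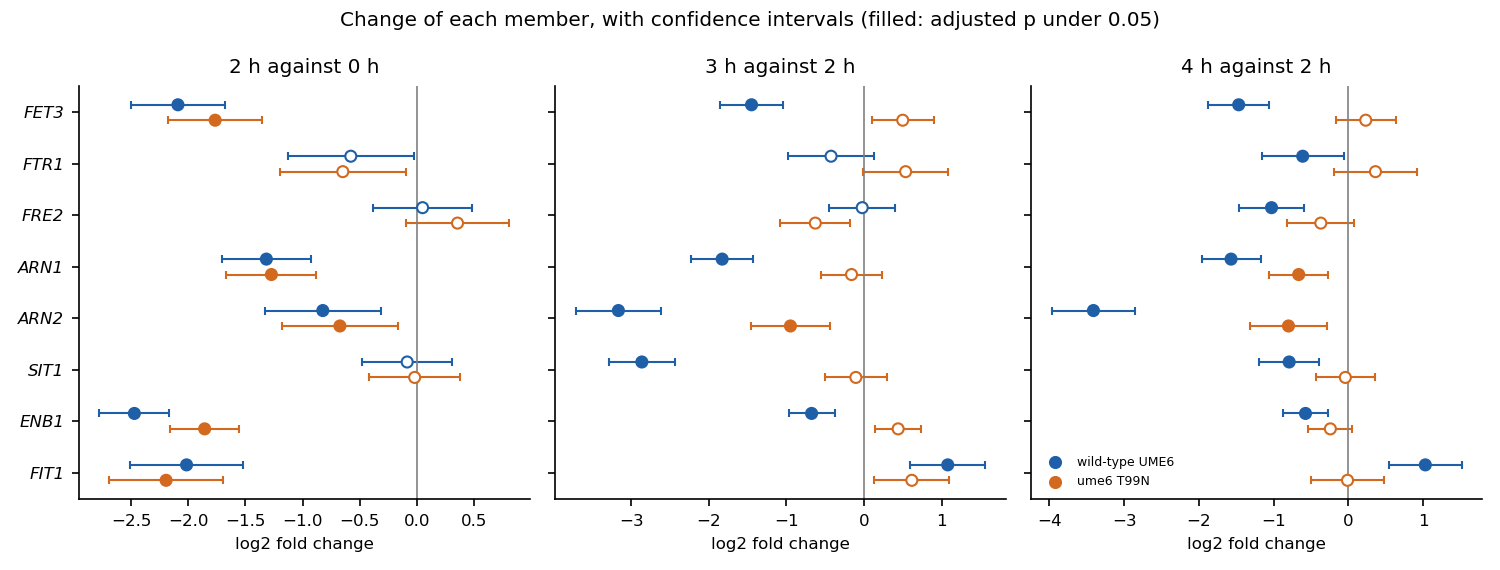
Log2 fold change (x axes) of the 8 genes (y axis) from 0 to 2 h, 2 to 3 h and 2 to 4 h in wild-type *UME6* (blue) and *ume6* T99N (orange), with 95% intervals from edgeR and filled points where the adjusted p was under 0.05. Before copper, 5 of the 8 genes fell in each strain. After it, *SIT1* was at -2.86 in wild type and -0.11 in T99N at 3 h, and *ARN2* at -3.16 and -0.95.

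In T99N, which received the same copper, most of these falls were not seen. With all libraries, 0 of the 8 genes rose from 2 to 3 h, where 1.17% of features rose, and 1 fell, where 3.35% fell. In the same comparison 3 genes were higher and 2 lower at an unadjusted p of 0.05, and DESeq2 called 1 higher and 2 lower. At 4 h against 2 h, 0 genes rose, where 11.2% of features rose (0 higher at an unadjusted p of 0.05 and by DESeq2), and 2 fell, where 14.0% fell. With both libraries that stand apart left out, 4 genes rose at 3 h (13.4% of features) and 2 fell (10.6%), and 3 rose at 4 h (16.6%) and 2 fell (15.9%). Leaving 2 h replicate 1 out alone gave the same counts of 4 and 2 at 3 h.

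*SIT1* showed the contrast most plainly. In T99N it was at 3237, 3116 and 3465 CPM at 2 h, 3324, 3215 and 2579 CPM at 3 h and 3384, 2839 and 3334 CPM at 4 h, with overlapping groups throughout. Its log2 change at 3 h had a 95% interval of -0.50 to 0.29, and at 4 h of -0.43 to 0.36. *FET3* was at 508, 269 and 322 CPM at 2 h, 474, 522 and 556 CPM at 3 h and 474, 389 and 430 CPM at 4 h. It changed by 0.50 ± 0.19 at 3 h with all libraries (adjusted p = 0.134, edgeR), and rose by 0.89 ± 0.19 with both libraries left out (adjusted p = 0.00144). *FTR1* had 678, 257 and 281 CPM at 2 h, with replicate 1 far above the others, and 621, 655 and 488 CPM at 3 h. It changed by 0.53 ± 0.27 with all libraries (adjusted p = 0.248, edgeR) and rose by 1.11 ± 0.22 without both (adjusted p = 0.00105).

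*ARN2* was the 1 transporter that fell in T99N at both times. It was at 390, 613 and 674 CPM at 2 h, 449, 215 and 205 CPM at 3 h and 372, 244 and 347 CPM at 4 h. The 3 h group overlapped the 2 h group through its replicate 1, the library that stands apart. The change was -0.95 ± 0.25 at 3 h and -0.80 ± 0.25 at 4 h (adjusted p = 0.0399 and 0.0212, edgeR), and -1.59 ± 0.20 and -0.98 ± 0.17 with both libraries left out (7.19e-06 and 0.00024). With all other libraries kept, the *ARN2* call at 3 h was lost without replicate 2 or 3 at 2 h (adjusted p = 0.215 and 0.272) and without replicate 2 or 3 at 3 h (0.156 and 0.2), and the call at 4 h without replicate 2 or 3 at 2 h (0.0755 and 0.109) and without replicate 2 at 4 h (0.113). *ARN1* was at 160, 140 and 179 CPM at 2 h and 159, 125 and 145 CPM at 3 h, with overlapping groups, and at 109, 91.3 and 102 CPM at 4 h, below every 2 h library (-0.66 ± 0.19, adjusted p = 0.014, edgeR). This call was lost without T99N replicate 3 at 2 h (adjusted p = 0.0673) or replicate 2 at 4 h (0.0648). *ENB1*, at 121, 129 and 150 CPM at 3 h, was above its 2 h libraries and went back to 87.8, 73.4 and 88.8 CPM at 4 h. Its rise at 3 h was called with both libraries left out (0.69 ± 0.15, adjusted p = 0.00239) or without 3 h replicate 1 (0.51, 0.0492), and not with all libraries (0.44 ± 0.14, adjusted p = 0.0756, edgeR). *FIT1* was at 188, 157 and 161 CPM at 3 h and 123, 99.4 and 105 CPM at 4 h. With both libraries left out it rose by 1.05 ± 0.20 at 3 h and 0.52 ± 0.19 at 4 h (adjusted p = 0.00071 and 0.0401, edgeR), while with all libraries the changes of 0.61 ± 0.23 and -0.01 ± 0.23 did not pass. *FRE2* was at 28.7, 18.6 and 20.4 CPM at 3 h, below every 2 h library, and its change of -0.63 ± 0.22 passed only without 2 h replicate 1 (-0.73, adjusted p = 0.0325), without 3 h replicate 1 (-0.82, 0.0325) or without both (-0.91, 0.0117), among the settings that left out libraries.

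The difference between the strains in these changes was tested as an interaction. For 3 h against 2 h it was positive, that is the change was higher in T99N, in 6 of the 8 genes, where 21.9% of features were, and in 0 genes negative, where 21.9% were (0 negative at an unadjusted p of 0.05 and by DESeq2). The differences were 2.76 ± 0.27 for *SIT1*, 2.22 ± 0.35 for *ARN2*, 1.95 ± 0.27 for *FET3*, 1.67 ± 0.27 for *ARN1*, 1.11 ± 0.20 for *ENB1* and 0.96 ± 0.37 for *FTR1* (adjusted p = 5.73e-08, 2.58e-05, 6.26e-06, 2.84e-05, 0.00011 and 0.0419, edgeR). With both libraries that stand apart left out, these 6 genes remained called, at 2.73, 1.60, 2.37, 1.63, 1.40 and 1.56, and *FRE2* was also called (-0.86 ± 0.32, adjusted p = 0.0376). With all other libraries kept, the *FTR1* call was lost without wild-type replicate 2 at 2 h or replicate 1 or 3 at 3 h, and without T99N replicate 2 or 3 at 2 h or replicate 1 or 2 at 3 h (0.66 to 0.95, adjusted p = 0.0705 to 0.164), and *FRE2* passed without T99N replicate 1 at 3 h (-0.77, 0.0471). For 4 h against 2 h the interaction was positive in 5 genes (18.3% of features) and negative in 1, *FIT1* (20.6%). *ARN2* and *FET3* differed most, by 2.61 ± 0.35 and 1.70 ± 0.27 (adjusted p = 6.18e-06 and 4.77e-05, edgeR). The difference of *SIT1* was smaller here, at 0.75 ± 0.27 (adjusted p = 0.0312). Scaled to totals, the features called were 610 positive and 2165 negative at 3 h and 477 and 1953 at 4 h, in place of 1204 and 1201, and 1002 and 1133. Under that scaling *FTR1* lost its call at both times (0.42 and 0.51, adjusted p = 0.349 and 0.263), *SIT1* and *ARN1* lost theirs at 4 h (0.37 and 0.54, 0.153 and 0.086), and *FIT1* and *FRE2* were called negative at 3 h (-0.98 and -1.03, 0.0181 and 0.012).

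At 4 h, *FTR1* and *SIT1* depended on single libraries in the interaction. The *FTR1* call was lost without wild-type replicate 2 at 2 h, replicate 2 or 3 at 4 h, or T99N replicate 2 or 3 at 2 h, or replicate 1 or 3 at 4 h (0.67 to 1.01, adjusted p = 0.0589 to 0.165), and its difference was 1.57 without T99N replicate 1 at 2 h (adjusted p = 0.000131). The *SIT1* call was lost without wild-type replicate 2 or 3 at 2 h, replicate 2 or 3 at 4 h, or T99N replicate 2 at 2 h, or replicate 1 or 3 at 4 h (0.56 to 0.76, 0.0502 to 0.0979). The *FIT1* difference was lost without T99N replicate 1 at 2 h (-0.54, 0.0851), where *ENB1* was gained (0.50, 0.0468), and *FRE2* passed without T99N replicate 2 at 4 h (0.85, 0.0267).

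Before copper few genes were called different between the strains with TMM scaling, while TPM, given last and not tested, set more of them apart. At 0 h, 1 gene was higher in T99N (18.4% of features), *FIT1* (0.59 ± 0.23, adjusted p = 0.0476, edgeR), and 1 was lower (18.6%), *FRE2* (-0.66 ± 0.21, adjusted p = 0.0198). The *FIT1* call was lost without any 1 of the 6 libraries (adjusted p = 0.0541 to 0.195) and under a block for replicate (0.0519). The *FRE2* call was lost without wild-type replicate 1 (-0.47, adjusted p = 0.117) or T99N replicate 3 (-0.51, 0.0996). At 0 h every T99N library was also below every wild-type library in CPM for *FET3* and *ARN1*. Their differences of -0.38 ± 0.19 and -0.35 ± 0.18 did not pass (adjusted p = 0.124 and 0.144, edgeR), though both reached an adjusted p under 0.05 in some alternatives. In TPM the strains overlapped at 0 h for *FET3* (403 to 439 in T99N, 419 to 455 in wild type). The same held for *ARN1* (131 to 137 and 124 to 140). At 2 h, *ENB1* was higher in T99N (0.57 ± 0.14, adjusted p = 0.00428), as were 21.0% of features, and 0 genes were lower, where 20.9% of features were (0 at an unadjusted p of 0.05 and by DESeq2). Without T99N replicate 1, *FTR1* was lower at 2 h (-0.61, 0.0212), and without T99N replicate 2 *FIT1* was higher (0.62, 0.0463). In TPM, *SIT1* was at 1110 to 1179 in T99N and 915 to 1071 in wild type at 0 h. *FTR1*, *ARN2*, *ENB1* and *FIT1* were also higher in T99N there, all without overlap. At 2 h *SIT1* was at 967 to 1195 against 586 to 791 TPM. *ARN2*, *ARN1*, *ENB1* and *FIT1* were likewise higher in T99N at 2 h without overlap. The other genes overlapped in TPM at these times.

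After copper the order was clear for most genes. At 3 h, 6 of the 8 genes were higher in T99N (27.6% of features) and *FRE2* was lower (29.4%). The median log2 difference of the 8 genes was 1.52, beside -0.01 over all features. Every T99N library was above every wild-type library for *SIT1* (6.46-fold), *ARN2* (4.96-fold), *FET3* (3.71-fold), *ENB1* (3.20-fold), *ARN1* (2.57-fold) and *FTR1* (1.92-fold). Their adjusted p-values ran from 6.05e-10 for *SIT1* to 0.00462 for *FTR1* (edgeR), and leaving out both libraries that stand apart kept all 6 calls. At 4 h, 6 genes were higher (22.5% of features) and *FIT1* was lower (30.2%), with a median of 0.79 beside -0.06. *ARN2* was now the most different, at 372, 244 and 347 CPM in T99N against 58.2, 46.2 and 43.0 CPM in wild type (2.71 ± 0.26, adjusted p = 3.7e-08, edgeR). *FET3* was 3.13-fold higher, at 474, 389 and 430 against 170, 139 and 104 CPM. *FIT1* was at 123, 99.4 and 105 CPM in T99N against 178, 162 and 167 CPM (-0.63 ± 0.23, adjusted p = 0.0273), a call lost without wild-type replicate 1 (0.071) or T99N replicate 2 (0.0887) or 3 (0.0748). *ARN1* lost its call (0.60 ± 0.19, adjusted p = 0.0111) without wild-type replicate 3 (0.38, 0.0635) and under scaling to totals (0.40, 0.0664). *SIT1*, which had partly returned in wild type, was 1.61-fold higher in T99N. Scaled to totals, 667 features were higher and 2135 lower in T99N at 4 h in place of 1237 and 1655, and 845 and 2237 at 3 h in place of 1514 and 1615.

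UB14584, the strain of the start-site data, has wild-type *UME6* and was measured at 2 and 4 h in its own experiment. There 5 of the 8 genes fell, where 26.8% of 5377 features fell, and *FIT1* rose, where 26.6% rose. *SIT1* fell from 2606 and 2465 CPM at 2 h to 116 and 155 CPM at 4 h, 18.7-fold (-4.22 ± 0.26, adjusted p = 0.000129, edgeR). A 3 h sample of this strain was not analysed here. In UB20649 *SIT1* stood at 1413 to 2519 CPM at 4 h, and the experiments were normalized separately, so that their levels were not tested against each other. *ARN2* fell from 124 and 197 to 15.7 and 20.6 CPM (-3.15 ± 0.28, adjusted p = 0.000361, edgeR), *FET3* from 216 and 184 to 43.0 and 49.0 CPM (-2.12 ± 0.15, adjusted p = 0.000182) and *ARN1* from 48.1 and 50.0 to 13.4 and 17.9 CPM (-1.65 ± 0.20, adjusted p = 0.00108). *FTR1* went from 253 and 215 to 144 and 150 CPM (-0.67 ± 0.14, adjusted p = 0.00866), a call lost without either 4 h library (0.104 and 0.0772). *ENB1* and *FRE2* did not pass, with 95% intervals of -0.79 to 0.14 and -0.72 to 0.43. *FIT1* was low in this strain, at 5.74 and 5.03 CPM at 2 h and 10.8 and 10.3 CPM at 4 h (0.96 ± 0.26, adjusted p = 0.0226). Its 2 h values rested on 16 and 18 reads, and the call was lost with DESeq2 (0.0789) and without replicate 5 at 2 h (0.0747), replicate 4 at 4 h (0.152) or replicate 5 at 4 h (0.115).

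TL-seq counts only the transcripts that start at a given site. For each of 6 genes the table gives 1 TSS cluster. The cluster of *FET3* was 24 bp wide and ended 43 bp before the start codon, that of *ARN2* was 29 bp wide with its far edge 42 bp before it, and that of *ENB1* was 77 bp wide with its near edge 214 bp away. The clusters of *FTR1* and *SIT1* were both 244 bp wide and reached into the coding region. Of these 6 clusters, 5 fell from 2 to 4 h in UB14584, where 24% of 5038 clusters fell, and 0 rose, where 23.5% rose (limma on log2 of normalized reads plus 1, adjusted p under 0.1; 0 higher at an unadjusted p of 0.05 and with edgeR on recovered reads). The median log2 change was -3.05, beside 0.02 over all clusters.

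**Figure D3:**
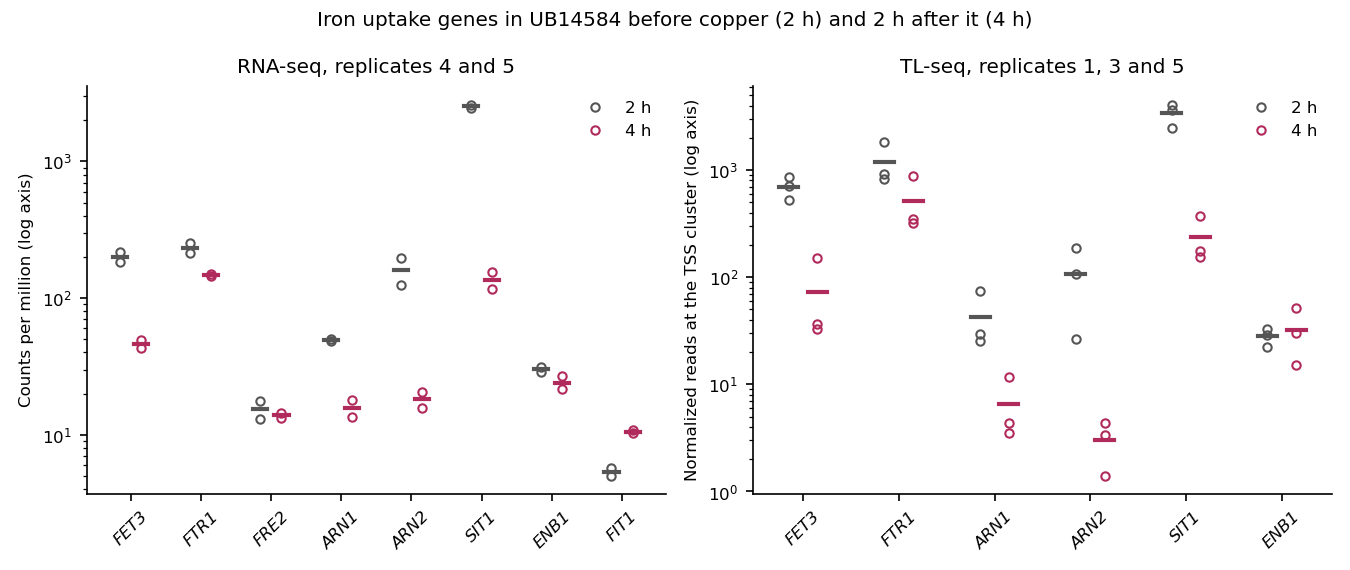
Values of each gene in UB14584 at 2 h (grey) and 4 h (red) on log axes, as CPM in RNA-seq (left, 2 libraries per time) and as normalized reads at the TSS cluster in TL-seq (right, 3 libraries per time), with bars at the mean. *SIT1* stood at 2465 and 2606 CPM at 2 h and at 116 and 155 CPM at 4 h, while *ENB1* overlapped between the times in TL-seq.

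The *SIT1* start site had 4084, 3660 and 2489 normalized reads at 2 h and 375, 156 and 175 at 4 h in replicates 1, 3 and 5 (-3.94 ± 0.35, adjusted p = 3.53e-05, limma). That of *FET3* had 862, 527 and 713 and then 33.0, 36.6 and 150 (-3.57 ± 0.51, adjusted p = 0.000548). For both genes the groups were far apart, and for *FET3* the fall was 4.26 without replicate 5 at 4 h. *ARN2* had 107, 26.4 and 189 normalized reads at 2 h and 4.35, 1.41 and 3.37 at 4 h (-4.43 ± 0.69, adjusted p = 0.000879, limma). The 4 h values are 5, 2 and 2 reads, and the change was -3.83 without replicate 5 at 2 h and -5.22 without replicate 3 at 2 h. *ARN1* had 29.5, 25.5 and 73.5 and then 4.35, 3.52 and 11.8 normalized reads (-2.54 ± 0.57, adjusted p = 0.00665), again with no overlap. *FTR1* had 1844, 816 and 914 at 2 h and 351, 318 and 871 at 4 h. Its groups overlapped, and its call (-1.27 ± 0.43, adjusted p = 0.0398, limma) was lost without replicate 1 at 2 h (0.137), replicate 1 at 4 h (0.136) or replicate 3 at 4 h (0.138). *ENB1* had 28.6, 32.8 and 22.5 and then 30.4, 51.4 and 15.2, a change of 0.06 with a 95% interval of -0.95 to 1.06. In the second table, which holds 3 of the genes and shares replicate 5, *SIT1* changed by -4.51, *ARN2* by -4.46 and *FET3* by -2.60 (adjusted p = 0.000258, 0.0245 and 0.00148, limma), and *ARN2* had 2 reads in replicate 5 at 4 h and 0 in replicate 4, a count that allows up to 3 reads.

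Ume6 ChIP-seq came from another strain (UB3301: *UME6-3V5*, *irt1:cup1*, *ime4:cup1*), grown to saturation in BYTA, a medium with acetate, and not from these cultures. It placed a peak of over 4-fold enrichment within 1000 bp upstream of 3 of the 8 genes in all 3 replicates. Such peaks in at least 2 replicates lay upstream of 23.6% of all genes. The summit at *FTR1* was 292, 304 and 309 bp before the start codon with enrichments of 12.8, 11.2 and 8.33, that at *SIT1* 297, 302 and 315 bp before it with 9.02, 8.08 and 7.16, and that at *FET3* 648, 655 and 654 bp before it with 9.31, 5.63 and 5.43. The *SIT1* summit lay 228.5, 233.5 and 246.5 bp from the midpoint of its TSS cluster. That of *FTR1* lay 318.5, 330.5 and 335.5 bp from its midpoint, and that of *FET3* 593.5, 600.5 and 599.5 bp. *ARN2*, *ARN1*, *ENB1*, *FRE2* and *FIT1* had no such peak. Among the genes called lower at 3 h in wild type, *SIT1* and *FET3* had a peak and *ARN2*, *ARN1* and *ENB1* did not. Whether Ume6 binding bears on these changes was not tested.

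The genes were then set beside other genes of iron and copper metabolism. Under starvation in wild type, where 25.0% of all features fell and 25.1% rose, 12 of 18 other iron genes fell and 2 rose (median log2 fold change -0.58), and 12 of 12 genes for iron storage and iron-using enzymes rose (median 1.24). Of 7 copper genes, 2 fell and 1 rose (median -0.19). Among those that fell were *HMX1*, heme oxygenase, from 413, 573 and 626 to 89.3, 123 and 125 CPM (-2.26 ± 0.25, adjusted p = 2.94e-07, edgeR), and *CCC2*, the copper pump that loads Fet3, from 576, 610 and 551 to 239, 260 and 241 CPM (-1.23 ± 0.14, adjusted p = 2.99e-07). *CTR1*, which encodes a copper transporter, fell from 997, 1062 and 1062 to 208, 300 and 326 CPM (-1.90 ± 0.51, adjusted p = 0.00371). The largest rises were of *GLT1*, glutamate synthase, an iron-sulfur enzyme, from 79.6, 78.6 and 63.0 to 848, 1063 and 911 CPM (12.8-fold), of *LEU1*, an iron-sulfur enzyme of leucine synthesis, 9.58-fold, and of *HEM15*, ferrochelatase, 3.21-fold (adjusted p = 1.16e-12, 3.37e-10 and 1.16e-07, edgeR). Of 7 iron regulators, 2 rose and 1, *AFT1*, fell, from 202, 169 and 174 to 134, 109 and 105 CPM (-0.64 ± 0.11, adjusted p = 8.12e-05).

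At 3 h against 2 h in wild type, where 31.2% of features fell and 35.0% rose, 13 of the 18 other iron genes fell and 5 rose (median -0.64), 8 of 12 storage and use genes fell and 3 rose (median -0.60), and 4 of 7 copper genes fell and 2 rose (median -1.60). At 4 h against 2 h, where 31.0% of features fell and 34.2% rose, 9 of the 18 other iron genes fell and 5 rose (median -0.33), 4 of 12 storage and use genes fell and 4 rose (median -0.08), and 4 of 7 copper genes fell and 1 rose (median -1.25). The counts of storage and use genes at 4 h were thus near those of all features. At 4 h *ERG3*, a sterol desaturase that contains iron, fell from 2335, 3761 and 2792 to 109, 99.6 and 79.9 CPM, *CTR3*, a copper transporter, from 454, 553 and 743 to 22.8, 27.8 and 28.5 CPM, and *VHT1*, the biotin transporter, from 706, 950 and 985 to 120, 107 and 73.1 CPM (-4.94, -4.47 and -3.14, adjusted p = 8.52e-13, 4.82e-06 and 9.59e-11, edgeR). The rises were led by *CUP1-2* (4.38), *LEU1* (1.96) and *LSO1* (1.50), a small gene induced in iron limitation. *AFT1* was at 87.8, 88.6 and 79.9 CPM at 4 h (-0.44 ± 0.11, adjusted p = 0.0019), while *AFT2* was higher at 3 h (0.69 ± 0.17, adjusted p = 0.00127) and not at 4 h (0.04, 0.846).

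**Figure D4:**
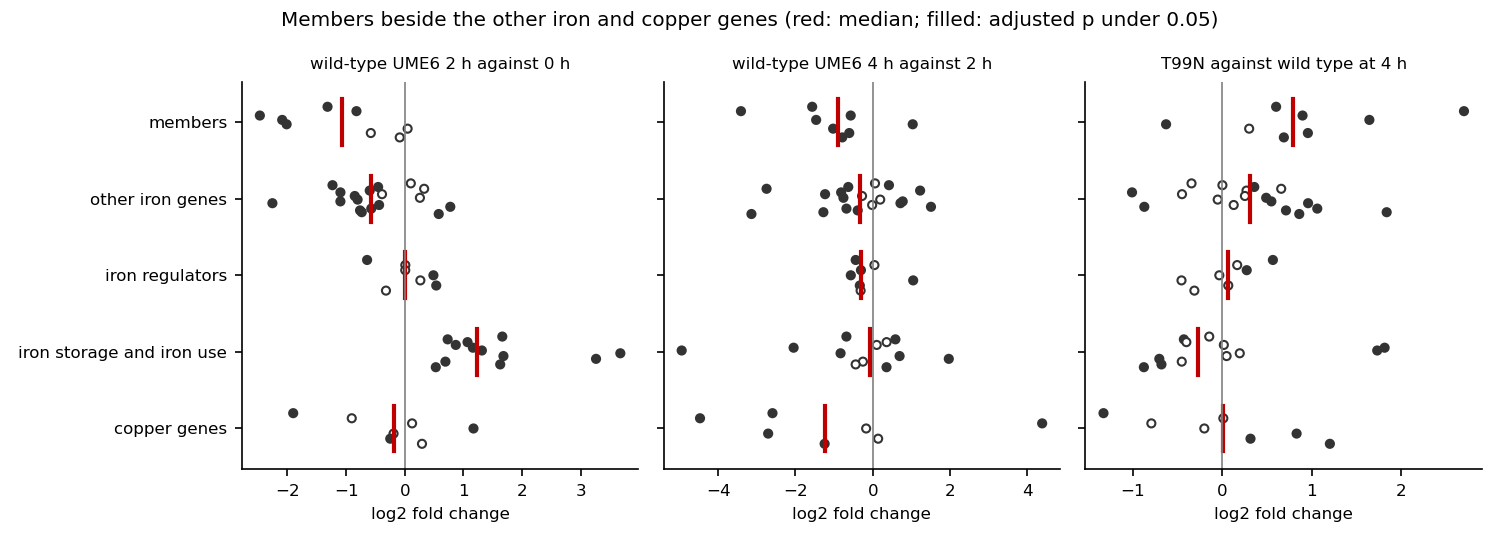
Log2 fold change (x axes) of the 8 iron uptake genes and of 4 lists of iron and copper genes (y axis) in wild type from 0 to 2 h and 2 to 4 h, and in T99N against wild type at 4 h. Each point is a gene, filled where the adjusted p was under 0.05 (edgeR), and red bars are medians. The medians of the uptake genes and the storage and use genes are -1.07 and 1.24 in the first panel.

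Between the strains at 3 h, where 27.6% of features were higher in T99N and 29.4% lower, 13 of the 18 other iron genes were higher and 1 was lower (median 0.58). At 4 h, where 22.5% of features were higher and 30.2% lower, 8 of these genes were higher and 2 lower (median 0.31). In the same comparison 2 of 12 storage and use genes were higher and 4 lower (median -0.27), and 3 of 7 copper genes were higher and 1 lower (median 0.01). *TIS11*, whose product degrades mRNAs of iron-using proteins when iron is scarce, had a mean of 287 CPM in T99N against 80.1 CPM in wild type, without overlap (3.58-fold, adjusted p = 2.19e-08, edgeR). Of the storage and use genes, the 2 higher ones were *ERG25* and *ERG3*, both of sterol synthesis, at 3.52-fold and 3.33-fold (adjusted p = 8.81e-07 and 2.13e-06). The 3 higher copper genes were *SOD1*, superoxide dismutase (2.3-fold), *FRE7*, a reductase (1.78-fold), and *MAC1*, the copper-sensing activator (1.24-fold), with adjusted p = 5.68e-05, 0.028 and 0.0138 (edgeR). The lower copper gene, *CTR1*, had a mean of 18.4 CPM against 46.1 CPM, and *FRE1*, a metal reductase, at 58.8, 46.1 and 47.2 against 103, 115 and 88.0 CPM (-1.33 and -1.01, adjusted p = 0.0435 and 0.00255, edgeR). *TYW1*, an iron-sulfur enzyme of tRNA modification, was 1.84-fold lower (adjusted p = 7.47e-06). *AFT1* was at 126, 121 and 133 CPM in T99N against 87.8, 88.6 and 79.9 CPM (0.57 ± 0.11, adjusted p = 0.000337), without overlap. At 4 h *CTR3* was at 25.7 to 27.4 CPM in T99N and 22.8 to 28.5 CPM in wild type. *CUP1-2* was at 601 to 739 CPM in T99N and 529 to 1648 CPM in wild type. Whether the cells of both strains held equal copper was not tested.

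Within the list, profiles differed. Against the mean of the 8 standardized profiles over the 8 groups, Pearson's r was 0.99 for *FET3*, 0.98 for *ARN1*, 0.96 for *ENB1*, 0.92 for *ARN2*, 0.87 for *FTR1*, 0.67 for *SIT1*, 0.56 for *FIT1* and 0.17 for *FRE2*. These are descriptions over 8 group means in which each gene is part of the mean, and the libraries, with their depth and scaling, are shared. Among all other features, those most like the mean profile were *HXT2*, a high-affinity glucose transporter gene (r = 0.99), *PUT1*, proline oxidase (0.99), *YOR389W* (0.98), *EPO1* (0.98) and *DOA4*, a deubiquitinating enzyme (0.98). *HXT2* had 3855 ± 502 CPM at 0 h, 550 ± 117 at 2 h and 112 ± 3.69 at 3 h in wild type, and 2483 ± 225, 615 ± 167 and 559 ± 65.9 CPM in T99N (SD, n = 3).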

How the data were processed

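RNA-seq, TL-seq and Ume6 ChIP-seq were analysed at 10 iron uptake genes. The authors mapped reads to SK1 and deposited salmon's expected counts and TPM; how strand was treated is not given in the sources used here. For TL-seq, the authors deposited the signal, normalized reads per TSS cluster. For ChIP, the authors deposited peaks with a fold enrichment over input. Expected counts were rounded (96.8% were whole) and tested with edgeR 4.0.16 (quasi-likelihood, TMM, filterByExpr), DESeq2 1.42.0 being an alternative, in 1 fit of 24 libraries and 1 of 4 (UB14584). TL-seq used limma 3.58.1 with a trend on log2(value + 1), and 100% of values returned to whole reads. SEs are the log2 change divided by the square root of F. P-values were adjusted over every feature tested (Benjamini-Hochberg). Methods were tested on simulated data. Deviations of same-numbered TL-seq libraries correlated (0.16, 0.17 and 0.39), so these numbers may pair the samples. The values given are from the fit without the pairing, and the paired fit was an alternative. No pair of libraries of a group agreed within sampling noise (chi-square per degree of freedom at least 5.24). Total counts gave the depth. ChIP depth is unknown. The members and lists were chosen with earlier results of these data known. Named besides the members were 2 checks, the 3 largest called rises and falls of the lists in 3 comparisons, and the 5 features nearest the mean profile. *AFT1*, *AFT2*, *SOD1*, *FRE7*, *MAC1* and, in the library check and the last strain comparison, *CTR1* and *CTR3* were named after their values were seen. The authors' own fold changes and p-values, histone and nucleosome tables, and 12 columns of normalized counts were not used here.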

Additional observations from a re-analysis of the deposited data

Results flagged for a closer look

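The change after copper differed between the strains by a test of the difference itself, the interaction of strain and time, in 12 cases (edgeR, adjusted p under 0.05, positive where the change was higher in T99N). From 2 to 3 h these were *SIT1* (2.76), *ARN2* (2.22), *FET3* (1.95), *ARN1* (1.67), *ENB1* (1.11) and *FTR1* (0.96). From 2 to 4 h they were *ARN2* (2.61), *FET3* (1.70), *FTR1* (0.97), *ARN1* (0.91), *SIT1* (0.75) and, in the other direction, *FIT1* (-1.04). Both sets share the 2 h libraries, including T99N replicate 1, which stands apart. Without it the *FIT1* difference was -0.54 and did not pass (adjusted p = 0.0851).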

How the results depend on the processing

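Of the results under the alternatives, 1673 kept their direction and their side of the threshold, 101 lost their call, 44 gained one and 3 reversed. With libraries scaled to totals *FRE2* reversed in wild type at 3 h (0.59), and *FIT1* in T99N at 4 h reversed without 2 h replicate 1 (leaving out 1 library gave -0.22 to 0.49) and without both libraries that stand apart (0.52); the cause was not tested. Most counts of called genes that moved were small, and the cause was not tested except where fewer libraries or a stricter rule made them.

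With totals, called genes were 2 higher in wild type at 3 h, 0 lower in T99N at 3 h, 0 higher in T99N against wild type at 0 h and 2 at 2 h, and the interaction gave 2 lower at 3 h and 2 higher at 4 h. With a minimum log2 fold change of 1 there were 4 lower in wild type at 4 h, 0 lower in T99N at 3 or 4 h, 0 higher or lower between strains at 0 h, 0 higher at 2 h, 0 lower at 3 h, 2 higher and 0 lower at 4 h, 2 higher in the interaction at 4 h and 0 higher in UB14584. At an adjusted p of 0.1, T99N at 3 h gave 1 higher and 2 lower, as did DESeq2, which gave 0 higher in UB14584. Fitting only the groups compared gave 0 lower in T99N at 3 h, 3 lower between strains at 0 h, and 3 higher and 0 lower in the interaction at 4 h. Without both libraries, T99N gave 4 higher and 2 lower at 3 h and 3 higher at 4 h, 1 gene was lower between strains at 2 h, and the interaction gave 1 lower at 3 h and 0 at 4 h. The second TL-seq table gave 3 lower of its 3 genes.

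Leaving out 1 library gave 0 to 4 higher and 0 to 2 lower in T99N at 3 h, 0 to 3 and 0 to 2 at 4 h, 0 higher and 0 to 1 lower between strains at 0 h, 1 to 2 and 0 to 1 at 2 h, 0 to 1 lower at 4 h, 0 to 1 lower in the interaction at 3 h, 3 to 6 higher and 0 to 1 lower at 4 h, and 0 to 1 higher in UB14584.

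The RNA-seq replicate numbers were not taken as pairs. Deviations of same-numbered libraries of a strain correlated at a median of 0.13 with a minimum of -0.32, in T99N, and in UB14584 at -0.04. In wild type some were higher, at 0.54 for replicate 1 at 0 and 2 h and 0.82 for replicate 3 at 3 and 4 h. Wild-type libraries of different numbers reached 0.64. Whether the RNA-seq numbers are pairs is not settled, and the block used as an alternative was common to both strains. A replicate block moved *FTR1* in T99N at 2 h (-0.69, adjusted p = 0.0323) and *FRE2* at 3 h (-0.65, 0.0496, then 2 lower) past the threshold and *FIT1* between strains at 0 h behind it (0.0519, then 0 higher). In TL-seq the block changed no call. Counts of few reads limit *FIT1* in UB14584 and *ARN2* in TL-seq. The promoter motif search was not run.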
